A study of Mus musculus with 16 samples.

Results

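Fabp3, Fabp4, Fabp5, Fabp7, Fabp12, Crabp1 and Crabp2 are genes of the intracellular lipid-binding protein family, and they are described here in retinas with and without Gtf2ird1. They were 7 of the 20259 genes measured, and they were found as the table rows annotated with these symbols, 8 rows with 1 symbol and 1 row with the symbols of several genes. Where a gene had several rows, the brightest one on average was used and the other is given beside it. The genes were chosen by the measured difference of Fabp7 between null and wild-type retinas at 2 weeks, as the family of that gene. That comparison is therefore given as values without a test for every member, and Fabp7 was tested only between genotypes at 4 months.

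The retinas came from mice null for Gtf2ird1 (labelled BEN-NULL), a TFII-I family gene whose product binds DNA and regulates transcription, and from age-matched wild-type (WT) mice. RNA was extracted from single retinas at 2 weeks and at 4 months of age, with 4 biological replicates in each of the 4 groups, and each of the 16 samples had its own Affymetrix Mouse Exon 1.0 array. The growth protocol gives the older age as 2 months, and 4 months, as in the titles, is the name used here. The strain, the sex and the way the null allele was made are not given in the sources used here, and no group received a treatment.

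Proteins of this family are small barrels that hold a single fatty acid or retinoid in the cytosol and carry it to membranes, enzymes or nuclear receptors. Fatty acid-binding proteins serve cells that import or burn lipid, and FABP7, the brain type, is known from radial glia and other neural progenitors, where its gene is a target of Notch signalling. The cellular retinoic acid-binding proteins CRABP1 and CRABP2 hold retinoic acid, which the eye makes from vitamin A. CRABP1 is known for passing it to the enzymes that break it down, and CRABP2 for delivering it to the retinoic acid receptors.

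The 250 bases upstream of the Fabp7 start and those upstream of Fabp3 are shown because Fabp7 is the gene that chose the family and Fabp3 fell with age in both genotypes. They are RefSeq windows of build GRCm38.p6 on the plus strand, 5′ to 3′, at chr10:57784673-57784922 for Fabp7 and chr4:130308488-130308737 for Fabp3.
Fabp7: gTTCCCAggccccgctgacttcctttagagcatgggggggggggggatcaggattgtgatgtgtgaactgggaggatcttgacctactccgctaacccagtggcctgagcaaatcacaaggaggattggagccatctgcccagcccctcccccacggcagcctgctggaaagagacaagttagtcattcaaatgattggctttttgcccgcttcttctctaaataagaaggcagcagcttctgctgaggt
Fabp3: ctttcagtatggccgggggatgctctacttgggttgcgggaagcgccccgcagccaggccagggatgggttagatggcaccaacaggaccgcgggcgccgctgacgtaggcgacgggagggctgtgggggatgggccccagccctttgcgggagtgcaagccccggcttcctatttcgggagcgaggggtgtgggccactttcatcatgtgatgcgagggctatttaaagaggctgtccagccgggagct
Capitals mark a match on the minus strand to TGGGAA, the core read by RBPJ, the DNA-binding partner of Notch. Both strands were searched, and 21.6% of 32851 RefSeq windows of this length hold that motif. GGATTA, a core bound by Gtf2ird1, was searched in this exact form only, and looser forms were not counted. The exact form was in neither window nor in that of Crabp1, and 6.25% of windows hold it. The direct repeat bound by PPAR receptors, 2 copies of AGGTCA with 1 base between them, was in none of the same 3 windows, and 0.0335% of windows hold it. RefSeq windows were matched for these 3 of the 7 genes.

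The arrays had median log2 signals between 5.31 and 5.55, and their number limits the precision of every value. Of 4 rows with the Gtf2ird1 symbol, 3 were lower on every null array than on every WT array of the same age. Their means were 4.71 to 5.06 in null, below the array medians, and 8.62 to 9.45 in WT, so no exact fold is given. The remaining row, the brightest of the 4, was not lower in null at either age. At 2 weeks it was higher on every null array than on every WT array (means 10.45 and 10.27). The photoreceptor genes Gnat1 (12.1 to 12.6) and Rcvrn (11.6 to 11.97) and the Muller glia gene Glul (12.2 to 12.6) were high on all 16 arrays. Lens markers differed widely between arrays, and the mean of 13 lens genes lay between 7.43 and 11.9. Xist was high on 2 of the 4 WT arrays of 2 weeks, on 1 of the 4 WT arrays of 4 months and on no null array, so sex and genotype were not balanced. In whole retina, fewer cells of a type and less RNA per cell cannot be told apart.

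**Figure D1:**
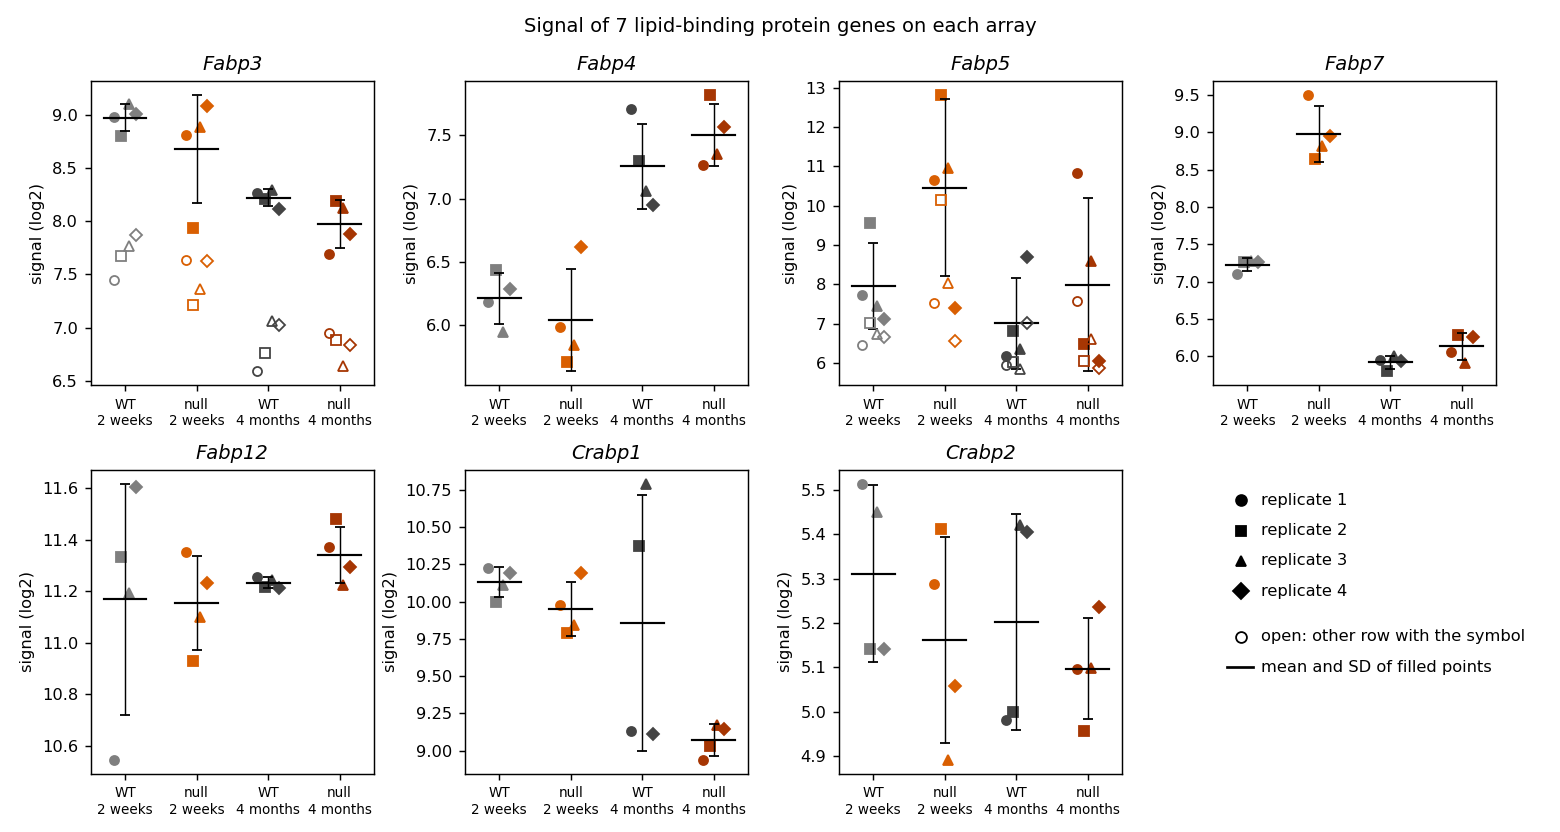
Log2 signal of each of the 7 genes on each array, by group, with the replicate number as the symbol. Lines and bars are the mean and SD of the row used for the gene (n = 4), and open symbols are the other row of Fabp3 and the row shared by Fabp5 and Fabp5l2. Fabp7 is highest in the null retinas of 2 weeks (8.64 to 9.50), while Fabp5 spreads from 7.39 to 12.8 within that group.

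Fabp7 was 3.36-fold higher in null than in WT retinas at 2 weeks, and its signal was lower at 4 months in both genotypes. At 2 weeks the 4 null arrays read 9.50, 8.64, 8.81 and 8.95 and the 4 WT arrays read 7.10, 7.27, 7.28 and 7.27 on the log2 scale. All null arrays therefore lay above all WT arrays, and the WT arrays stood close together. The means were 8.97 ± 0.37 and 7.23 ± 0.09 (SD, n = 4), a difference of 1.75 with a limma standard error (SE) of 0.14. These are the values that brought the family in, so nothing is read from them. Fabp7 was the 1 member of 7 whose groups did not overlap at 2 weeks, against 5.82% of all genes. Without null replicate 4 the number was 3, the others being Fabp5, higher in null, and Crabp1, lower in null.

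At 4 months the null arrays read 6.06, 6.29, 5.92 and 6.27 for Fabp7 and the WT arrays read 5.95, 5.80, 6.01 and 5.93. The groups overlapped, and the null mean was 0.21 higher (95% interval -0.09 to 0.51, limma adjusted p = 1.00). The 4 groups thus stood in the order null at 2 weeks, WT at 2 weeks, null at 4 months and WT at 4 months, and the last neighbours in that order did not differ beyond their spread. From 2 weeks to 4 months the difference was -1.30 in WT and -2.84 in null (SE 0.14 each), with no overlap between the ages in either genotype. The null-WT difference at 4 months was lower than that at 2 weeks, with a change of -1.54 on the log2 scale (SE 0.20). These age values use the arrays that chose the gene and were not tested.

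Most markers of the pigment epithelium, the pigmented layer behind the photoreceptors, were higher in null at 2 weeks and fell with age in null. In WT their median change with age was small beside that of Fabp7, while changes of single markers ran from -1.78 to 0.20. With age, limma called 2 of 10 lower in WT and 5 of 10 in null. Of all genes it called 9.19% in WT and 9.61% in null. At 2 weeks 9 of 10 such markers were higher in null (median difference 0.81), and from 2 weeks to 4 months 10 of 10 were lower in null (median -1.34) and 6 of 10 in WT (median -0.15). The log2 of their summed signal ran from 12.2 to 12.9 in null and from 11.6 to 12.3 in WT at 2 weeks, and from 11.2 to 11.7 and 11.4 to 11.8 at 4 months. No deposited value is 0. Within groups the pigment markers followed Fabp7 on some arrays and not on others. Among null arrays of 2 weeks, replicate 1 was highest in both (pigment mean 8.40, Fabp7 9.50) and replicate 2 lowest in both (7.81 and 8.64). Replicates 3 and 4 of that group stood in opposite order. Among WT arrays of 4 months, replicate 2 was lowest in both (6.45 and 5.80), while different arrays were highest. WT replicate 2 of 2 weeks had the highest pigment mean of its group (7.86), with Fabp7 at 7.27, close to replicates 3 and 4. Null replicate 2 of 4 months had the lowest pigment mean of its group (6.20) and the highest Fabp7 signal (6.29). With the mean of the pigment list as a covariate, an alternative chosen after the data were seen, the Fabp7 difference at 2 weeks was 1.64. With the mean of the lens list as a covariate it was 1.89. Of Muller glia markers 8 of 9 were higher in null at 2 weeks, with a median of 0.14, and of progenitor markers 5 of 8, with a median of 0.21. More were higher than lower also among amacrine (5 of 7, median 0.20), endothelial (7 of 8, median 0.09) and astrocyte markers (4 of 6, median 0.04). The photoreceptor and ganglion cell medians were -0.01 each, and the median of all genes was -0.02. The part of pigment epithelium, glia and progenitors in the Fabp7 difference was not tested.

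The named genes whose signal was most like that of Fabp7 over the 16 arrays were Bpifb6, a member of a family of lipid-transfer-like proteins, Apln, which encodes the vascular peptide apelin, and Pmel, which builds the fibrils of melanosomes. Their Pearson correlations with Fabp7 were 0.97, 0.97 and 0.95 among 17398 genes compared. These arrays share their groups, and with the group means taken out the correlations were 0.34, 0.40 and 0.50. Pmel is itself among the pigment epithelium markers. The 2-week means of Bpifb6 were 8.10 ± 0.37 for null and 6.69 ± 0.44 for WT (SD, n = 4), and 5.57 ± 0.08 and 5.46 ± 0.11 at 4 months. Apln read 6.57 ± 0.22 and 5.66 ± 0.14 at 2 weeks, and 4.84 ± 0.24 and 4.86 ± 0.17 at 4 months. Both genes were picked for this likeness, so their order of groups is no separate result.

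**Figure D2:**
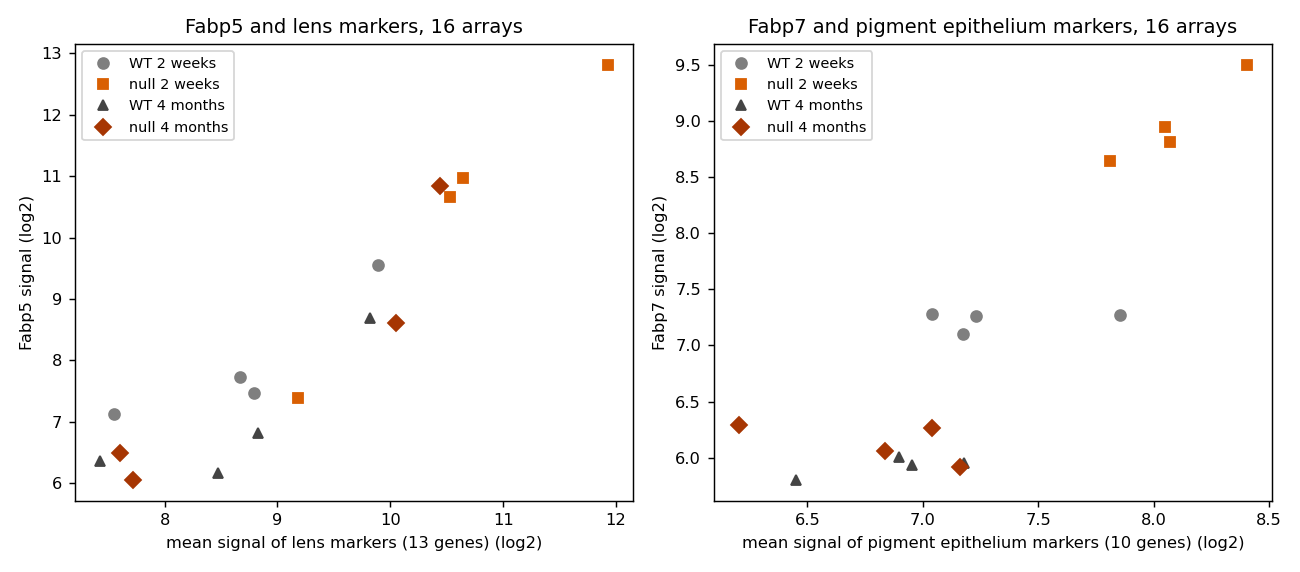
Left, log2 signal of Fabp5 against the mean log2 signal of 13 lens markers; right, Fabp7 against the mean of 10 pigment epithelium markers; 1 point per array, symbols by group. In each group the array with the highest lens mean is also the one with the highest Fabp5. The null arrays of 2 weeks lie above all others in Fabp7.

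Fabp5, the epidermal type, varied widely between arrays of the same group. At 2 weeks the null arrays read 10.7, 12.8, 10.97 and 7.39 and the WT arrays read 7.72, 9.56, 7.46 and 7.13. Of the null arrays 3 lay above all WT arrays and null replicate 4 lay among them. The difference was 2.49 with an SE of 1.08, which is given without a test. At 4 months the null arrays read 10.8, 6.49, 8.61 and 6.05 and the WT arrays read 6.17, 6.82, 6.36 and 8.70. The groups overlapped, and the difference of 0.98 did not pass (95% interval -1.30 to 3.26, limma adjusted p = 1.00). The group means fell in the order null at 2 weeks (10.5 ± 2.26), null at 4 months (7.99 ± 2.20), WT at 2 weeks (7.97 ± 1.09) and WT at 4 months (7.01 ± 1.15; SD, n = 4 each), and every neighbouring pair overlapped. From 2 weeks to 4 months the difference was -0.95 in WT and -2.47 in null, and neither passed (limma adjusted p = 0.656 and 0.180). Without null replicate 4 of 2 weeks the difference in null was -3.49 and passed (limma adjusted p = 0.0392).

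The row used for Fabp5 lies among rows of chromosome 9 genes, as all 20 of its nearest named rows do, whereas Fabp5 is on chromosome 3. Its signal is therefore given as that of the row annotated with the symbol. The other row lies among rows of chromosome 3 and carries the symbols of both Fabp5 and Fabp5l2, so its signal cannot be given to Fabp5 alone. At 2 weeks its mean was 8.07 ± 1.51 in null and 6.72 ± 0.24 in WT (SD, n = 4), with null replicate 2 at 10.1 and null replicate 4 at 6.57. The same null array was therefore highest, and the same one lowest, on both rows.

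The array highest in Fabp5 in each group was also highest in lens markers. Null replicates 1 to 4 of 2 weeks had lens means of 10.5, 11.9, 10.6 and 9.18, in the same order as their Fabp5 signals. In the other groups the highest lens mean was that of WT replicate 2 at 2 weeks (9.89), null replicate 1 at 4 months (10.4) and WT replicate 4 at 4 months (9.82), and each of these arrays also had the highest Fabp5 signal of its group. In each of those 3 groups 1 pair of the other arrays stood in the opposite order in Fabp5 and in the lens mean. All 13 lens markers were higher in null at 2 weeks, with a median difference of 1.96, and 11 of 13 at 4 months, with a median of 0.37. The groups overlapped for all 13 at both ages. At 4 months limma called 0 of 13, where 0.41% of all genes were called, and the values of 2 weeks are given without a test. The log2 of their summed signal ran from 14.3 to 16.1 in null and from 13.02 to 14.8 in WT at 2 weeks, and from 13.1 to 15.2 and 12.8 to 14.8 at 4 months. With the lens mean as a covariate the Fabp5 difference at 2 weeks was -0.07 in place of 2.49. Since the lens markers were themselves higher in null at that age, lens signal and genotype cannot be told apart in that fit. The part of lens tissue in the Fabp5 difference was not tested. The genes most like Fabp5 over the 16 arrays were Gpd1, a glycerol phosphate dehydrogenase, and the lens crystallins Cryba4 and Crygc, with Pearson correlations of 0.96, 0.95 and 0.95, and of 0.93, 0.96 and 0.92 with the group means taken out. Cryba4 is itself among the 13 lens markers.

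Between genotypes at 4 months, 0 of the 7 genes passed limma, where 0.41% of 20259 genes were called and 1087 had an unadjusted p under 0.05. Their groups overlapped for 7 of 7, where 4.73% of all genes had groups that did not. Crabp1 had the largest difference relative to its error, -0.78 with an SE of 0.28 (unadjusted p = 0.0122, adjusted p = 0.560). The values of Fabp3 (-0.24), Fabp4 (0.25), Fabp12 (0.11) and Crabp2 (-0.10) had 95% intervals of -0.64 to 0.15, -0.17 to 0.66, -0.23 to 0.45 and -0.39 to 0.19. The test of whether the null-WT difference itself changed between the ages called 0 of the 6 members other than Fabp7, where limma called 0.00987% of all genes and 1199 had an unadjusted p under 0.05. The values were 0.42 for Fabp4, -0.60 for Crabp1 and -1.51 for Fabp5, with SE of 0.28, 0.39 and 1.52.

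**Figure D3:**
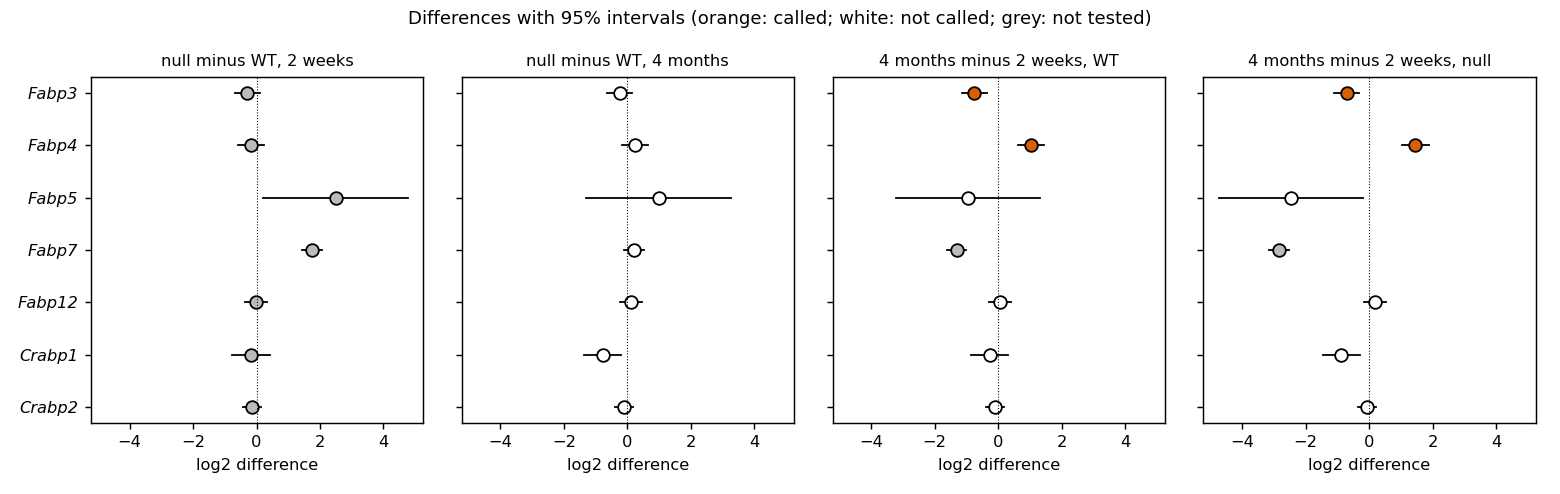
Log2 differences of the 7 genes with 95% intervals from limma, in 4 comparisons. Orange points were called at an adjusted p under 0.05, white points were tested and not called, and grey points were not tested because the comparison or its arrays chose the genes. Fabp4 (1.04 in WT, 1.46 in null) and Fabp3 (-0.75 and -0.70) are the members called between the ages.

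Between the ages, Fabp4 rose and Fabp3 fell in both genotypes. Of the 6 members tested, 1 rose and 1 fell in WT, where 9.19% of all genes were called, and 1 rose and 1 fell in null, where 9.61% were called. The age comparisons share no arrays with each other but share the estimate of spread. Among the 6 members other than Fabp7, Fabp3 and Fabp4 had no overlap between the ages in WT (12.7% of all genes). In null these were Fabp4 and Crabp1 (17.5% of all genes). Fabp7 had no overlap in either genotype, but it is not counted here because the arrays of 2 weeks chose it.

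Fabp4, the adipocyte type, which endothelial cells and macrophages also make, read 6.19, 6.44, 5.95 and 6.28 on the WT arrays of 2 weeks and 7.70, 7.30, 7.06 and 6.95 on those of 4 months. In null it read 5.98, 5.71, 5.85 and 6.62 at 2 weeks and 7.27, 7.82, 7.35 and 7.57 at 4 months. All arrays of 4 months lay above all arrays of 2 weeks in both genotypes. The rise was 1.04 in WT (SE 0.20, 2.06-fold, limma adjusted p = 0.00353) and 1.46 in null (SE 0.20, 2.75-fold, limma adjusted p = 0.000238). In the order of the groups, null and WT at 4 months (7.501 and 7.25) did not differ beyond their spread, and neither did WT and null at 2 weeks (6.21 and 6.04). The call in null was lost with the pigment list as a covariate, with a value of 1.55 and a limma adjusted p of 0.0829. Over all genes that covariate gave 76 calls in null, against 1947 without it.

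Marker lists of the cells that make Fabp4 had medians below 0 between the ages. Of 8 endothelial markers 1 rose and 3 fell in each genotype, with medians of -0.18 in WT and -0.23 in null. Their single changes ran from -0.75 to 0.90 in WT and from -1.48 to 0.73 in null. Of all genes 9.19% were called in WT and 9.61% in null. The log2 of their summed signal ran from 10.6 to 11.1 in null at 2 weeks and from 11.1 to 11.3 at 4 months. In WT it ran from 10.8 to 10.96 at 2 weeks and from 10.8 to 11.2 at 4 months. Of 8 macrophage and microglia markers 0 rose and 3 fell in WT and 0 rose and 2 fell in null, with medians of -0.35 and -0.10. Of 5 adipocyte markers 0 were called in WT (1861 of all genes were called by limma, and 4676 had an unadjusted p under 0.05), and in null 0 rose and 1 fell, with medians of -0.22 and -0.04. The median of all genes was -0.04 in WT and -0.02 in null.

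Fabp4, Fabp5, Fabp9, Fabp12 and Pmp2 are neighbours on chromosome 3. A row that carries both Pmp2 (myelin protein P2) and Fabp9 (a testis type) was looked at after its values were seen. It read 5.05 ± 0.03 in WT at 2 weeks and 5.78 ± 0.08 at 4 months, and 5.001 ± 0.05 and 6.03 ± 0.21 in null (SD, n = 4). It rose by 0.73 in WT and by 1.03 in null (limma adjusted p = 0.000353 and 3.1e-05 over all rows of the table), and 1 row cannot separate these genes. Fabp12, known from retina and testis of rodents, was not called.

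Fabp12 read 11.2 ± 0.45 in WT and 11.2 ± 0.18 in null at 2 weeks, and 11.2 ± 0.02 and 11.3 ± 0.11 at 4 months (SD, n = 4). All 4 groups overlapped in the comparisons made. WT arrays of 2 weeks ran from 10.5 to 11.6, with replicate 1 lowest, and the other groups lay within that range. The age differences of 0.06 in WT and 0.19 in null (SE 0.16 each) did not pass (limma adjusted p = 0.863 and 0.567).

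Fabp3, the heart and muscle type, read 8.98, 8.80, 9.10 and 9.01 on the WT arrays of 2 weeks and 8.27, 8.21, 8.29 and 8.11 on those of 4 months. In null it read 8.81, 7.93, 8.88 and 9.09 at 2 weeks and 7.69, 8.19, 8.13 and 7.88 at 4 months. In WT the ages did not overlap, and in null replicate 2 of 2 weeks lay among the arrays of 4 months. The fall was -0.75 in WT (SE 0.19, 1.69-fold, limma adjusted p = 0.0179) and -0.70 in null (SE 0.19, 1.63-fold, limma adjusted p = 0.0241). The group order was WT and then null at 2 weeks (8.97 and 8.68), followed by WT and null at 4 months (8.22 and 7.97), and neighbours of the same age overlapped.

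The row used for Fabp3 lies among rows of chromosome 10 genes, while the gene is on chromosome 4. The other Fabp3 row, 19 of whose 20 nearest named rows are of chromosome 4 genes, read 7.69 ± 0.18 in WT and 7.46 ± 0.21 in null at 2 weeks and 6.86 ± 0.22 and 6.83 ± 0.13 at 4 months (SD, n = 4). On that row all arrays of 4 months lay below all arrays of 2 weeks in both genotypes. It fell by 0.83 on the log2 scale in WT and by 0.63 in null (limma adjusted p = 0.00160 and 0.0151 over all rows of the table). On the row used for the gene, leaving out WT replicate 3 of 2 weeks ended the call in WT (-0.71, adjusted p = 0.0575), and median centring of the arrays and the pigment covariate did so too (limma adjusted p = 0.0510 and 0.0595). The call in null was lost without any 1 of null replicates 1, 3 and 4 of 2 weeks or 1 and 4 of 4 months, with values between -0.67 and -0.57. It was also lost when all rows of the table were tested, when only the arrays compared were fitted and with the pigment covariate (limma adjusted p = 0.0530, 0.0724 and 0.508).

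For Crabp1 the WT arrays of 4 months split. They read 9.13, 10.4, 10.8 and 9.11, while the null arrays of 4 months read 8.94, 9.03, 9.17 and 9.14. At 2 weeks the WT arrays read 10.2, 9.99, 10.1 and 10.2 and the null arrays read 9.98, 9.79, 9.84 and 10.2. WT replicates 2 and 3 of 4 months were thus above every other array, and WT replicates 1 and 4 lay among the null arrays of their age. The age difference in null was -0.88 (SE 0.28), with all arrays of 4 months below all of 2 weeks, and it did not pass (limma adjusted p = 0.0569). It passed in 8 of 28 alternatives, among them the fit of the arrays compared alone (adjusted p = 0.000915), which leaves out the spread of the WT arrays of 4 months. The difference in WT was -0.28 (limma adjusted p = 0.610). The genes most like Crabp1 were Gpc2, a heparan sulphate proteoglycan of the developing nervous system, Rprm and the splicing factor gene Plrg1, with Pearson correlations over 16 arrays of 0.83, 0.82 and 0.81.

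Crabp2 read 5.31 ± 0.20 in WT and 5.16 ± 0.23 in null at 2 weeks and 5.20 ± 0.24 and 5.10 ± 0.11 at 4 months (SD, n = 4). The groups overlapped in all 4 comparisons, and no difference exceeded 0.15 in size. It was the 1 member whose mean was under that of the median gene.

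**Figure D4:**
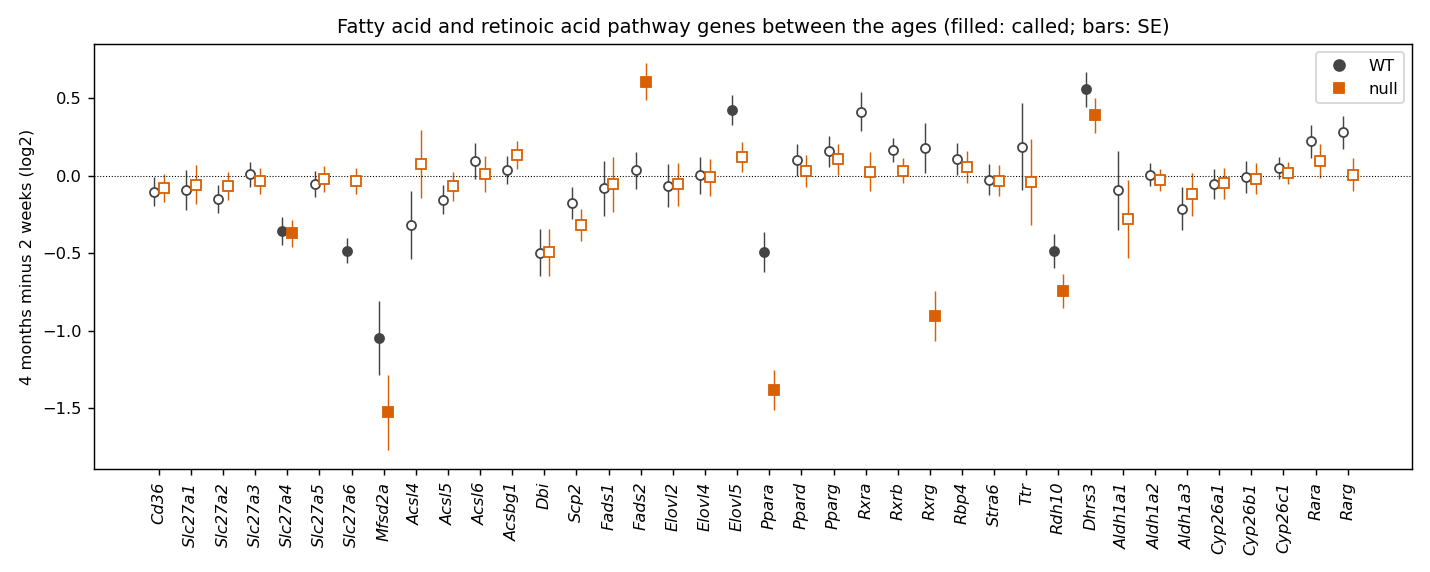
Log2 difference between 4 months and 2 weeks for the measured genes of the fatty acid and retinoic acid lists, in WT (circles) and null (squares), with SE bars; filled symbols were called by limma. Mfsd2a falls most in both genotypes (-1.05 and -1.53) and Dhrs3 rises in both (0.56 and 0.39).

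Genes that feed these carriers were described from lists. Of 19 measured genes of fatty acid uptake and activation, 1 rose and 3 fell with age in WT, where limma called 9.19% of all genes, and 1 rose and 2 fell in null, where it called 9.61%. The list's medians were -0.09 and -0.06, and those of all genes -0.04 and -0.02. Mfsd2a, which carries docosahexaenoic acid as a lysolipid, fell from 7.43 to 6.38 in WT (-1.05, limma adjusted p = 0.0121) and from 8.03 to 6.50 in null (-1.53, adjusted p = 0.000840). The fatty acid transporter gene Slc27a4 fell in both genotypes (-0.36 and -0.37), and Slc27a6 fell in WT (-0.48). The rises were the elongase gene Elovl5 in WT (0.42) and the desaturase gene Fads2 in null (0.60). Between genotypes at 4 months none of the 19 was called (limma, 83 of all genes called), with a median of -0.03.

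Of 6 nuclear receptor genes of fatty acids and their partners, Ppara, the receptor that turns on fatty acid oxidation, was lower in null at 4 months, at 6.42 against 8.70 in WT (-2.28, limma adjusted p = 2.6e-08), and the other 5 were not called. At 2 weeks, given without a test, Ppara read 7.79 in null and 9.19 in WT (-1.39). All null arrays of that age lay below all WT arrays. Ppara also fell with age in WT (-0.49, limma adjusted p = 0.0246) and in null (-1.38, adjusted p = 1.1e-05). The age fall in WT lost its call in 7 of 28 alternatives, among them without any 1 of WT replicate 3 of 2 weeks and WT replicates 1, 2 and 3 of 4 months (-0.47 to -0.44). With the rows of Ppara averaged, the fall was -0.25 in WT and lost its call (limma adjusted p = 0.126). On that average the fall in null was -0.70 and the genotype difference at 4 months -1.62, and both kept their calls. Ppard and Pparg were called in none of the 3 tested comparisons.

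Of 11 genes of retinoic acid supply and breakdown, 1 rose and 1 fell with age in each genotype, and 0 were called between genotypes at 4 months (limma, 83 of all genes called). The age counts here and for the receptor and family genes that follow stand beside 9.19% of all genes called in WT and 9.61% in null, and nothing is read from counts this small. Rdh10, the dehydrogenase that starts retinoic acid synthesis, fell from 9.94 to 9.45 in WT (-0.49, limma adjusted p = 0.0107) and from 10.1 to 9.31 in null (-0.75, adjusted p = 0.000513). With the rows of the gene averaged, the fall of Rdh10 in null was -0.34 and lost its call (limma adjusted p = 0.0579), and with only the arrays compared the call in WT was lost (adjusted p = 0.0685). Dhrs3, which turns retinal back to retinol, rose by 0.56 in WT (limma adjusted p = 0.00615) and by 0.39 in null (adjusted p = 0.0403). The rise of Dhrs3 in null was lost in 13 of 28 alternatives, among them without any 1 of null replicates 1 and 3 of 2 weeks, null replicates 1 to 4 of 4 months or WT replicate 2 of 4 months, with values between 0.33 and 0.43. Of 5 measured retinoic acid receptor genes 0 were called in WT and 1 fell in null, Rxrg (-0.90, limma adjusted p = 0.00219). At 2 weeks, given without a test, Rxrg read 7.36 in null and 6.71 in WT. All null arrays of that age lay above all WT arrays. Of 5 other measured genes of the lipid-binding protein family, 1 fell with age in WT, the retinol carrier gene Rbp7 (-0.37, limma adjusted p = 0.0195). Its means of 5.18 and 4.81 lay under every array median. None of the others was called in either genotype. Leaving out any 1 of WT replicate 4 of 2 weeks or WT replicates 2 and 3 of 4 months ended the call of Rbp7 (-0.35 to -0.32), and leaving out WT replicate 4 of 2 weeks ended that of Slc27a4 in WT (-0.32). With the pigment covariate the age calls of Mfsd2a and Rdh10 were lost in both genotypes, and those of Slc27a4, Fads2, Rxrg and Dhrs3 in null and of Ppara and Rbp7 in WT. Mfsd2a was then -0.84 in WT and -0.94 in null (limma adjusted p = 0.0772 and 0.435).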

How the data were processed

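Each deposited value is a log2 signal of a transcript cluster (called a row here) on an array, made with Partek and RMA on genome build mm8, per the submitters' processing notes, which give no versions. The log base was inferred from the range of the deposited values (3.76 to 15.7). The table held 115830 rows, of which 25539 carried 1 gene symbol and were reduced to 20259 genes by the highest mean, with no filter on low signal. GEO's platform annotation gave the symbols, and a gene table of build GRCm38.p6 was used only for names, chromosomes and neighbours. The 16 arrays were fitted together by limma 3.58.1 (lmFit, eBayes; R 4.3.3), with a mean for each of the 4 groups, adjusted by Benjamini-Hochberg over all genes (or over all rows for second rows), and called at an adjusted p under 0.05. The labels name the replicates biological. The procedure was tested on simulated data.

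The members and lists were chosen with earlier results of these data known. Named are the members, list genes called at 4 months between genotypes, up to 4 called genes of each list between ages, and the 3 genes most correlated with a member. Same-numbered arrays were checked for pairing by the correlation of their residuals, which ran from -0.28 to 0.23. The main fit did not pair them, but such correlations cannot exclude pairing. At 2 weeks the lens means of replicates 1 to 4 stood in the same order in both genotypes. They were 10.5, 11.9, 10.6 and 9.18 in null and 8.67, 9.89, 8.79 and 7.55 in WT. Alternatives were other scalings, filters, rows, variance models, covariates, a block and leaving out each array.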

Additional observations from a re-analysis of the deposited data

Results flagged for a closer look

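Of 36 groups of 4 arrays examined over the 9 rows, 2 had an array far from the other 3, where chance gives about 1 in 20. Fabp7 read 7.10 on WT replicate 1 of 2 weeks, while the nearest of the other WT arrays read 7.27. This array also had the highest median signal of the 16 (5.55). The row shared by Fabp5 and Fabp5l2 read 7.02 on WT replicate 4 of 4 months, while the nearest of the other WT arrays read 6.02, and that array had the highest lens marker mean of its group (9.82).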

How the results depend on the processing

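Among 28 alternatives (27 for the change of the genotype difference), the number of members called between genotypes at 4 months stayed at 0, and so did that for the change of this difference between the ages. Between the ages the 2 members called in WT became 1 with median centring and 1 with the pigment epithelium covariate, and the 2 called in null became 1 when all rows of the table were tested and 0 with the pigment epithelium covariate, an alternative chosen with the data in view. The null count rose to 3, with Crabp1, under quantile normalization, array weights, the lens covariate and the filter at the median signal (limma adjusted p = 0.0460, 0.0186, 0.0334 and 0.0381). Leaving out 1 array gave 1 to 3 members without overlap at 2 weeks, 1 to 2 called in WT and 1 to 3 called in null. With only the arrays compared the null count was 2, but these were Fabp4 and Crabp1. The age difference of Fabp12 in WT turned to -0.021 with quantile normalization and -0.10 with array weights and ran from -0.14 to 0.21 without 1 array, that of Crabp2 in null ran from -0.16 to 0.018 without 1 array, and the change of the Fabp5 difference between the ages became 0.61 with the lens covariate; none of these was called, and the cause was not tested. Without null replicate 4 of 2 weeks the age difference of Fabp5 in null passed (-3.49, limma adjusted p = 0.0392). With the replicate block 2 members were called in WT and 2 in null, and the block changed no other call of a member; for the list gene Dhrs3 in null it gave an adjusted p of 0.0719. Counts over all genes ranged from 50 to 200 at 4 months (83), from 855 to 2903 in WT (1861), from 76 to 3500 in null (1947) and from 0 to 38 for the change of the difference (2).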
